A study of Homo sapiens with 4 samples.

Results

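The genes described here are 10 core genes of the microRNA pathway, chosen by name from the 32973 genes listed in the deposited RPKM table. They are DROSHA and DGCR8, XPO5, DICER1, the Argonaute genes AGO1, AGO2, AGO3 and AGO4, and TNRC6A and TNRC6B. All 10 were listed, and all 10 had at least 1 RPKM in every library (RPKM is reads scaled to exon length and to the assigned reads of the library). Transcript levels had been measured by RNA sequencing of total RNA from T24T and UMUC3, 2 human cell lines of bladder cancer. The stated aim was to find genes downstream of BCUC-1, the circular RNA hsa_circ_0001361. The 4 groups were T24T BCUC-1, T24T vector, UMUC3 BCUC-1 and UMUC3 vector, in which cells of each line had been stably transfected with a BCUC-1 overexpression plasmid or with the matching vector. The circle itself was not analysed here, so its overexpression was not checked. Each group held 1 library. A ratio of BCUC-1 to vector within a line therefore compares those libraries and has no replicate check. Whether the transfected cells were a pool or a clone is not given in the sources used here.

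The libraries held between 22730112 and 26497894 assigned reads, of which 3.84% and 3.92% were mitochondrial in T24T and 5.30% and 6.33% in UMUC3 (BCUC-1 and vector). Of 6 epithelial markers, the keratins KRT7, KRT8 and KRT18 were above 1 RPKM in all 4 libraries, while KRT19, EPCAM and CDH1 had at most 0.0363, 0.219 and 0.00686 RPKM. Among the keratins, KRT8 stood at 146 and 133 RPKM in the T24T BCUC-1 and vector libraries, against 13.2 and 13.0 RPKM in those of UMUC3. Urothelial markers were low, and the summed RPKM of 6 such genes was between 0.684 and 2.52. The highest value was 1.03 RPKM, for UPK1B in T24T BCUC-1, beside 0.895 in T24T vector and 0 in both UMUC3 libraries. The summed RPKM of 4 endothelial markers was at most 0.0772 and that of 5 fibroblast markers at most 0.737. Of the leukocyte markers reported, CD14 had at most 0.140 RPKM, while CD68 stood at 6.78 and 7.45 RPKM in T24T and at 124 and 119 RPKM in UMUC3 (BCUC-1 and vector).

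MicroRNAs are short RNAs that guide the silencing of messenger RNAs. Their primary transcripts are cut in the nucleus by the Microprocessor, made of the nuclease DROSHA and its RNA-binding partner DGCR8. The hairpins are carried to the cytoplasm by exportin-5, the product of XPO5, and are trimmed by the nuclease DICER1. One strand is then loaded into an Argonaute protein. Argonaute binds a TNRC6 (GW182) protein, which recruits the deadenylases that shorten and destabilise the target.

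DGCR8 and DICER1 are tied to microRNAs through their own messages as well, and the sequences are shown to identify those links. The DGCR8 message carries microRNA hairpins. On GRCh38 the mature miR-1306-3p (chromosome 22, plus strand, 20086112 to 20086129) is inside the coding part of DGCR8. The mature miR-3618 lies at 20085797 to 20085818, inside its 5′ UTR. The DICER1 message is a known target of let-7 and of miR-103 and miR-107, and published work on this circle names miR-491-5p as a microRNA that it binds. In the mature sequences from RefSeq (GRCh38.p14), written 5′ to 3′, capitals mark the seed, bases 2 to 8.
miR-1306-3p: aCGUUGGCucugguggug
miR-3618: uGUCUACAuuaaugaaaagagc
let-7a-5p: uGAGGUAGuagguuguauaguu
miR-103a-3p: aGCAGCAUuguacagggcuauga
miR-107: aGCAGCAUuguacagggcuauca
miR-491-5p: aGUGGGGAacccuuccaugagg

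miR-103a-3p and miR-107 share their seed. Its match, ATGCTGC, occurred 5 times in the 4270 bases of the DICER1 3′ UTR (of its longest coding transcript in GENCODE 29). The match to the let-7 seed, CTACCTC, occurred in that UTR 0 times and in the 5769 bases of the DICER1 coding sequence 4 times. Of these, 3 were followed by the A that lengthens a seed match. The first pair of windows below is from the 3′ UTR, starting with the site at its base 1034 and then that at base 4110, and the second pair is from the coding sequence, at its bases 3641 and 5139. Capitals mark the 7-base match.
DICER1, miR-103/107 match: atcacacctaaaatATGCTGCagatttt
DICER1, miR-103/107 match: atatttaccatcacATGCTGCagctgtt
DICER1, let-7 match: acccgtgcaaccaaCTACCTCatattcc
DICER1, let-7 match: gatgcgattttggaCTACCTCataacca

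Searched on the transcript strand alone, the miR-103/107 match was present in the 3′ UTRs of 6 of the 10 genes (AGO1, AGO2, AGO3, AGO4, DICER1 and TNRC6B). It was present in 20.02% of the 10100 coding genes whose 3′ UTR was at least as long as the shortest of the 10, the 935 bases of DROSHA. The let-7 match was in 3 of the 10 (AGO1, AGO2 and AGO3), against 15.4% of those genes. The miR-491-5p match, TCCCCAC, was in 5 of the 10 (AGO1, AGO3, XPO5, TNRC6A and TNRC6B), against 25.3%. The 3′ UTRs of AGO1, AGO2, AGO3 and TNRC6B were between 10921 and 16755 bases long, so these shares are not matched for length. A match is a run of letters and does not show that the microRNA acts there.

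The nuclease of the nuclear step was the most abundant member. DROSHA, on chromosome 5 from 31400497 to 31532196, had 21.1 RPKM in T24T BCUC-1, 21.9 in T24T vector, 12.9 in UMUC3 BCUC-1 and 12.6 in UMUC3 vector. It was the highest of the 10 in each library. In UMUC3 its lead was within counting error, since its 95% Poisson interval overlapped that of XPO5 with BCUC-1 and that of AGO2 with vector. DGCR8, on chromosome 22 from 20080232 to 20111877, had 10.0 and 9.25 RPKM in T24T BCUC-1 and vector, and 9.49 and 8.23 in UMUC3 BCUC-1 and vector. The level of DROSHA was 2.11 and 2.37 times that of DGCR8 in the T24T libraries, against 1.36 and 1.54 times in the UMUC3 libraries (BCUC-1 and vector).

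XPO5 (on chromosome 6 from 43522330 to 43576075) and AGO2 varied least of the 10 genes over the libraries, with highest levels 1.16 and 1.17 times the lowest. XPO5 had 12.4 RPKM in T24T BCUC-1, 11.6 in T24T vector, 12.4 in UMUC3 BCUC-1 and 10.7 in UMUC3 vector. DICER1, on chromosome 14 from 95086228 to 95158010, had 8.53 and 8.80 RPKM in the T24T BCUC-1 and vector libraries, and 9.96 and 10.4 RPKM in those of UMUC3. Both UMUC3 libraries were thus above both T24T libraries.

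AGO2, the Argonaute best known for cutting a fully paired target, was the most abundant of its family in every library. It lies on chromosome 8 from 140520156 to 140635619. Its level was 10.6 RPKM in T24T BCUC-1, 11.1 in T24T vector, 12.1 in UMUC3 BCUC-1 and 12.4 in UMUC3 vector. AGO4, AGO1 and AGO3 follow each other on the plus strand of chromosome 1, at 35808172 to 35857890, 35869808 to 35930528 and 35930718 to 36072500, with 189 bases between AGO1 and AGO3. AGO1 had 7.20 and 7.69 RPKM in T24T BCUC-1 and vector, and 4.90 and 4.54 in UMUC3 BCUC-1 and vector. AGO4 had 3.52 and 4.43 RPKM in the T24T pair and 4.23 and 4.22 in the UMUC3 pair. AGO3 was the lowest of the 10 genes in each library, with 1.316 and 1.41 RPKM in T24T and 1.08 and 1.14 in UMUC3 (BCUC-1 and vector). The AGO1 and AGO4 intervals overlapped in UMUC3 vector and in no other library.

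The lines divided the family differently. AGO2 took 46.9% and 44.97% of the summed RPKM of the 4 Argonaute genes in T24T BCUC-1 and vector, against 54.2% and 55.6% in UMUC3 BCUC-1 and vector. AGO1 took 31.8% and 31.3% in T24T, against 22.003% and 20.4% in UMUC3. The sum itself was 22.7 and 24.6 RPKM in T24T and 22.3 and 22.3 RPKM in UMUC3.

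TNRC6A, on chromosome 16 from 24610209 to 24827632, had 14.3 RPKM in T24T BCUC-1, 14.4 in T24T vector, 8.17 in UMUC3 BCUC-1 and 7.66 in UMUC3 vector. TNRC6B, on chromosome 22 from 40044817 to 40335808, had 2.95 and 3.37 RPKM in the T24T pair and 2.77 and 2.58 in the UMUC3 pair. The paralog TNRC6C, which is outside the 10 genes, had 1.66 and 1.71 RPKM in T24T, against 2.68 and 2.32 in UMUC3. TNRC6A took 75.6% and 73.9% of the summed RPKM of the 3 paralogs in T24T BCUC-1 and vector, against 60.0% and 61.0% in UMUC3 BCUC-1 and vector. The lengths behind these values cover every annotated exon, from 7267 bases in AGO4 to 21157 in AGO3. With the length of the longest coding transcript instead, AGO3 stayed lowest in each library, and XPO5 rather than DROSHA was highest in UMUC3 BCUC-1. Both lengths include the 16755 bases of the AGO3 3′ UTR, so its place was not checked against a shorter one. In T24T BCUC-1 AGO3 had 657 reads and AGO4 604.

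**Figure D1:**
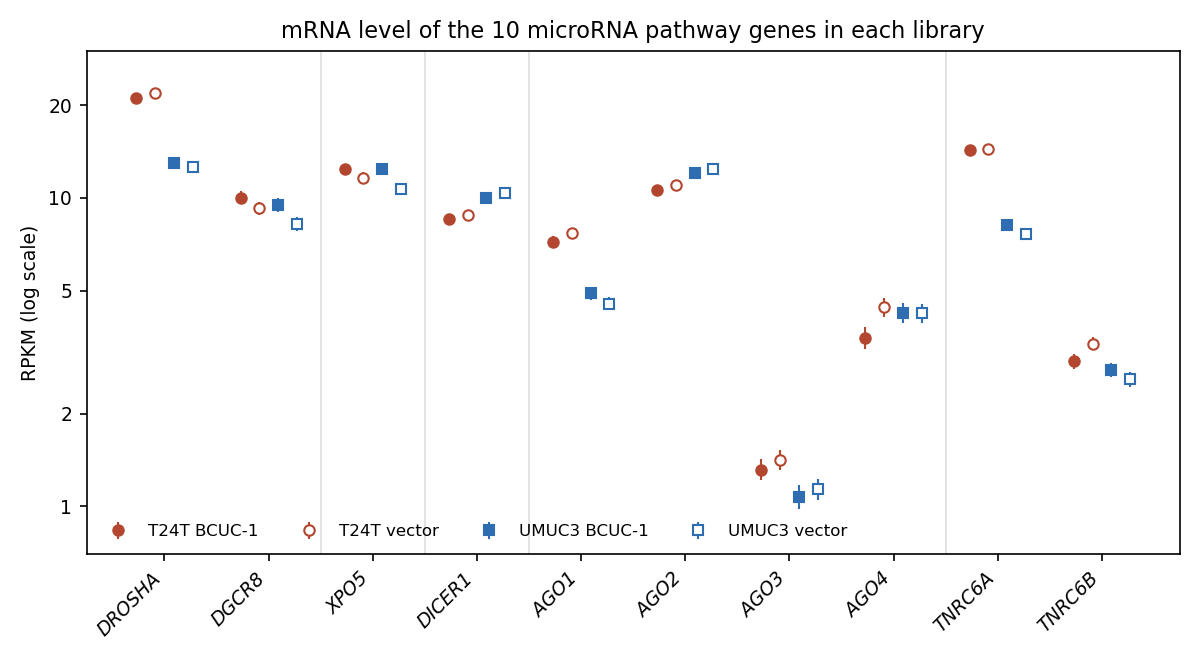
RPKM of the 10 genes in each library on a log axis, ordered by step of the pathway, with filled symbols for BCUC-1, open symbols for vector and bars for exact 95% Poisson intervals. The T24T symbols of DROSHA, TNRC6A and AGO1 lie above those of UMUC3, and AGO3 is lowest throughout, between 1.08 and 1.41 RPKM.

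**Figure D2:**
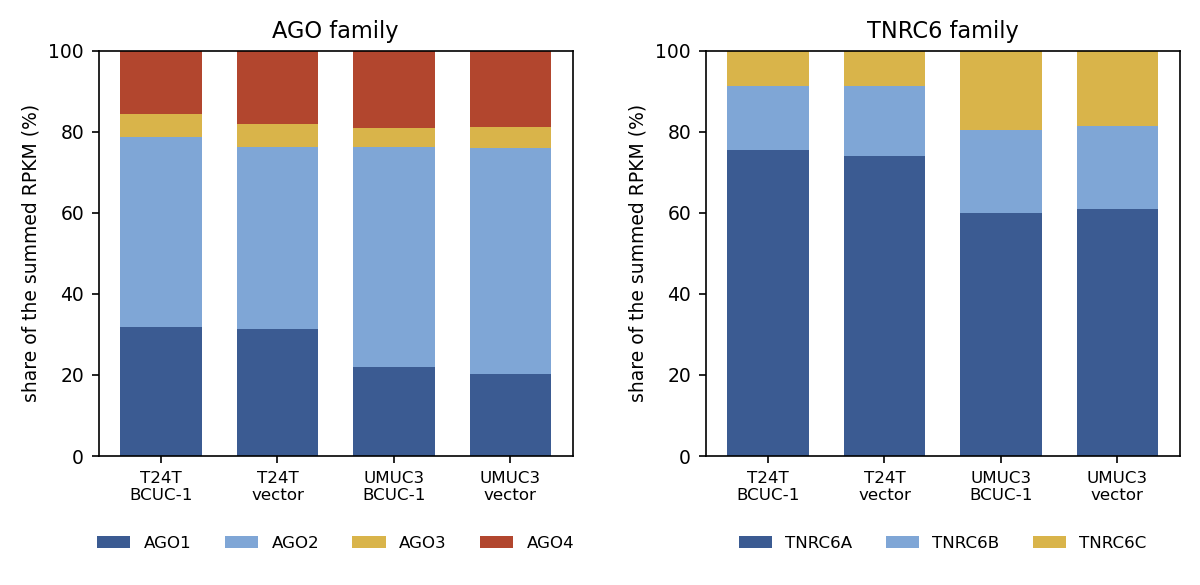
Share in percent of the summed RPKM taken by each Argonaute gene (left) and each TNRC6 gene (right) in each library, with BCUC-1 left of vector. AGO2 takes 54.2% and 55.6% in UMUC3 BCUC-1 and vector, and TNRC6A takes 75.6% and 73.9% in T24T BCUC-1 and vector.

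The comparison of BCUC-1 with vector asked whether the machinery changed when the circle was overexpressed. No member passed the test over both lines, and no gene of the table did. The limma fit used log2(RPKM + 1) with cell line as a second term. Of 15415 genes, 0 (0%) had an adjusted p below 0.05 by the Benjamini-Hochberg method, and 652 had an unadjusted p under 0.05. At a floor of 5 RPKM 60 of 8830 genes passed, and with limma-voom on the recovered reads 13 of 15415 did, none of them members. AGO3, AGO4 and TNRC6B lie under that floor and were not fitted there. That test rests on 2 pairs of libraries and 1 residual degree of freedom. The largest estimates among the members were 0.14 (SE 0.082) for DGCR8, 0.14 (SE 0.079) for XPO5 and -0.13 (SE 0.11) for AGO4. For each of these limma gave an adjusted p of 0.998 and a range of 0.930 to 1.00 over the settings in which the gene was fitted. DGCR8 and XPO5 were higher in the BCUC-1 library of 2 of 2 lines, and AGO4 was lower in 1 of 2.

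Within each line, reads scaled to depth alone (RPM, the same as RPKM before division by length) were compared as a ratio of BCUC-1 to vector, with an exact 95% interval that covers counting error alone. Reads carried no molecular identifiers, so these intervals are a lower limit of the error. A difference of at least 1.2-fold was used as a rule of size, for genes whose pair of libraries held 200 reads or more. By that rule 5.77% of 12515 genes differed in T24T, 1.18% higher and 4.59% lower with BCUC-1. In UMUC3 14.6% of 12156 genes did, 8.97% higher and 5.67% lower. With equal medians these splits were 213 higher and 407 lower genes in T24T, beside 148 and 574, and 776 and 1002 in UMUC3, beside 1090 and 689. Of the members, 1 of 10 passed it in T24T (AGO4) and 0 of 10 in UMUC3. The intervals of 3 members lay wholly below 1 in T24T, against 11.2% of genes, and those of 2 lay wholly above it, against 6.22%. In UMUC3, 4 lay wholly above 1, against 23.7% of genes, and 0 wholly below, against 17%. These shares are not matched for reads, on which the width of an interval depends. The UMUC3 counts depend on the scaling. There the medians of the libraries differed by 0.039 on the log2 scale. The lower bounds of AGO1 and TNRC6A, 0.0093 and 0.012, were under that and under the 0.023 and 0.017 of genes of their GC content. The upper bounds of AGO2 and DICER1, 0.019 and 0.012, were under 0.039 as well, so with equal medians these lay wholly below 1.

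DGCR8 and XPO5 were higher with BCUC-1 in both lines, by less than 1.2-fold. DGCR8 stood at 73.3 RPM in T24T BCUC-1 and 67.7 RPM in T24T vector (ratio 1.08, interval 1.01 to 1.16). It stood at 69.4 RPM in UMUC3 BCUC-1 and 60.2 RPM in UMUC3 vector (ratio 1.15, interval 1.08 to 1.24). XPO5 stood at 106 RPM in T24T BCUC-1 and 99.0 RPM in T24T vector (ratio 1.07, interval 1.01 to 1.13). The UMUC3 libraries had 105 RPM of it with BCUC-1 and 91.3 RPM with vector (ratio 1.15, interval 1.09 to 1.22). Among all genes with enough reads in both lines, 2.26% of 11273 had intervals wholly above 1 in both lines, as these 2 of 10 members did. Intervals wholly below 1 in both lines were found for 0 of 10 members and for 2.19% of genes. More reads give a narrower interval, and these shares are not matched for reads.

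The ratios in UMUC3 moved with base composition. Genes of the GC content of DGCR8 (53.6%) had a median log2 ratio of 0.094 there, and those of the GC content of XPO5 (49.0%) one of 0.059. With this trend removed, the log2 ratios in UMUC3 were 0.11 for DGCR8 and 0.15 for XPO5, beside 0.21 for both before. In T24T they were 0.12 and 0.099. The intervals of both genes stayed above the trend in both lines. So did those of 1.72% of genes, a share not matched for reads. Scaled to non-mitochondrial reads, the UMUC3 log2 ratios of both were 0.19. The counting used no strand information that could be checked here, and the opposite-strand gene AC006547.8 lies wholly within the DGCR8 exons with 131 to 144 reads. With those reads subtracted, the DGCR8 ratio was 1.0995 (1.02 to 1.18) in T24T and 1.16 (1.08 to 1.25) in UMUC3. The subtraction takes them as counted for both genes, which could not be checked.

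The other nuclease genes differed little. DROSHA had ratios of 0.965 (0.923 to 1.01) in T24T and 1.02 (0.968 to 1.08) in UMUC3. DICER1 had 0.969 (0.917 to 1.02) and 0.959 (0.911 to 1.01). With the GC trend removed the DICER1 log2 ratio in UMUC3 was 0.044, beside -0.061 before, since genes of its low GC content (39.2%) had a median of -0.10 there. All 4 intervals included 1 and lay within 1.2-fold either way. They cover counting error alone, so they do not exclude a difference of that size.

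AGO4 had the largest difference of the set. It had 604 reads (25.6 RPM) in T24T BCUC-1 and 762 reads (32.2 RPM) in T24T vector, and the ratio was 0.796 (0.714 to 0.887). The UMUC3 libraries were nearly level, at 30.8 RPM with BCUC-1 and 30.7 RPM with vector (ratio 1.00, interval 0.905 to 1.11). The T24T log2 ratio was -0.33 and stayed at -0.32 with the GC trend removed. Genes of at least 200 reads had an SD of 0.13 on that scale in T24T and 0.19 in UMUC3.

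AGO1, the neighbour of AGO4, lay on opposite sides of 1 in the lines. In T24T it had 2360 reads with BCUC-1 and 2528 with vector, and the ratio was 0.937 (0.886 to 0.992). In UMUC3 it had 1547 reads with BCUC-1 and 1671 with vector, at different depths, and the ratio was 1.08 (1.01 to 1.16). Of 11273 genes with enough reads in both lines, 2.79% had intervals wholly below 1 in T24T and wholly above 1 in UMUC3. This share is not matched for reads. In UMUC3 the lower bound of AGO1, 0.0093 on the log2 scale, was under the 0.023 of genes of its GC content. With equal medians the AGO1 intervals of both lines included 1. AGO2 had 0.963 (0.922 to 1.01) in T24T and 0.973 (0.934 to 1.01) in UMUC3. AGO3 had 0.933 (0.838 to 1.04) and 0.943 (0.838 to 1.06), on 517 to 707 reads per library. For both genes the intervals of both lines included 1. Reads that match more than 1 Argonaute gene could have been assigned in a way that is not given in the sources used here.

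TNRC6B was lower with BCUC-1 in T24T, at 59.1 RPM with BCUC-1 and 67.4 RPM with vector (ratio 0.876, interval 0.815 to 0.942). The UMUC3 values were 55.4 RPM with BCUC-1 and 51.6 RPM with vector (ratio 1.07, interval 0.993 to 1.16). TNRC6A had ratios of 0.993 (0.952 to 1.04) in T24T and 1.07 (1.01 to 1.13) in UMUC3. With equal medians its UMUC3 interval included 1. The members' median log2 ratio was -0.053 in T24T, with 2 above 0 and 8 below, beside a median of -0.017 over all genes of at least 200 reads. In UMUC3 it was 0.063, with 7 above 0 and 3 below, beside 0.032 over all genes. That UMUC3 split was 5 and 5 with equal medians, where DROSHA and AGO4 turned, and 9 and 1 with the GC trend removed, where DICER1 and AGO3 turned. With equal medians the T24T split was 3 and 7. A difference between the lines in these ratios could not be tested, since the interaction leaves no residual degree of freedom.

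**Figure D3:**
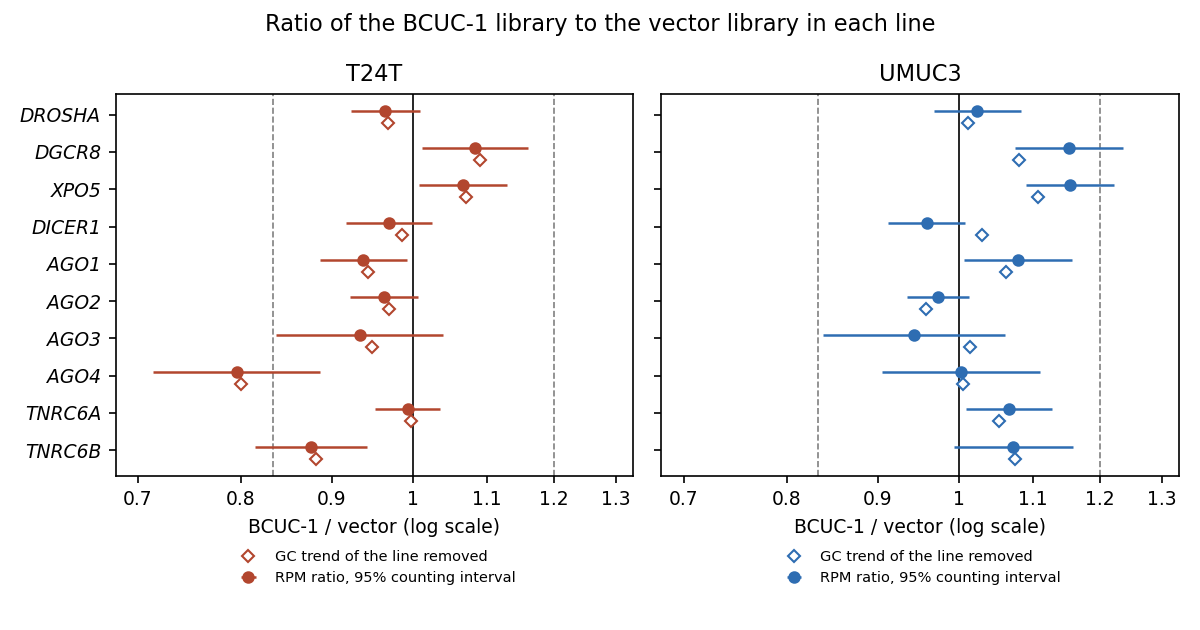
Ratio of RPM in the BCUC-1 library to that in the vector library on a log axis for T24T (left) and UMUC3 (right). Filled symbols carry exact 95% counting intervals, diamonds have the GC trend of the line removed, and dashed lines mark 1.2-fold. AGO4 in T24T, at 0.796, is the 1 gene whose symbols lie beyond a dashed line, and DGCR8 and XPO5 lie right of 1 in both panels.

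Between the lines, 3 of the 10 members passed the test. TNRC6A, DROSHA and AGO1 were higher in T24T, by 1.75-fold and 1.88-fold, 1.63-fold and 1.73-fold, and 1.47-fold and 1.69-fold in RPM (BCUC-1 libraries and vector libraries). On log2(RPKM + 1) the limma difference was 0.78 (SE 0.080) for TNRC6A, with an adjusted p of 0.000173. It was 0.71 (SE 0.073) for DROSHA in limma, with an adjusted p of 0.000188, and 0.56 (SE 0.095) for AGO1, with an adjusted p of 0.00177. Each of these was higher in 2 of 2 T24T libraries. The line contrast called 70.4% of the 15415 genes tested, 40.8% as higher and 29.6% as lower in T24T (6289 and 4558 genes, beside 5274 and 5550 with equal medians). The 3 member calls of 10 depend on the fit. With limma-voom 7 of 10 members passed, 5 of them higher and 2 lower in T24T, beside 72.6% of all genes. A difference in share between members and all genes was not tested.

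The other 7 members did not pass in the planned fit. DICER1 stood at -0.21 (SE 0.080), with a limma adjusted p of 0.0525 and a range of 0.00311 to 0.0822 over the other settings, and was lower in both T24T libraries. AGO2 stood at -0.16 (SE 0.077) in limma, with an adjusted p of 0.103 and a range of 0.0123 to 0.1202. The estimates of AGO3, TNRC6B, DGCR8, XPO5 and AGO4 lay between -0.077 and 0.18, with limma adjusted p from 0.161 to 0.561. Over the settings AGO3 ranged from 0.0104 to 0.903 and TNRC6B from 0.0106 to 0.546, and both passed with limma-voom. The median gene was 0.11 (BCUC-1 libraries) and 0.18 (vector libraries) higher in T24T on the log2 RPKM scale. Relative to equal medians, TNRC6A stood at 0.65, DROSHA at 0.57, AGO1 at 0.44, DICER1 at -0.34 and AGO2 at -0.29, and all 5 then passed in limma, with adjusted p from 0.000249 to 0.0123. The libraries of a line share their cells of origin and differ in plasmid. With line and plasmid both in the fit, the 1 residual degree of freedom is the disagreement of the lines over the plasmid difference. limma drew the variance of each gene toward a trend over all genes, with 5.55 prior degrees of freedom. These p-values therefore do not measure the spread between replicate cultures of a line. Fewer copies of an RNA per cell and more of all other RNA cannot be told apart in bulk samples.

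**Figure D4:**
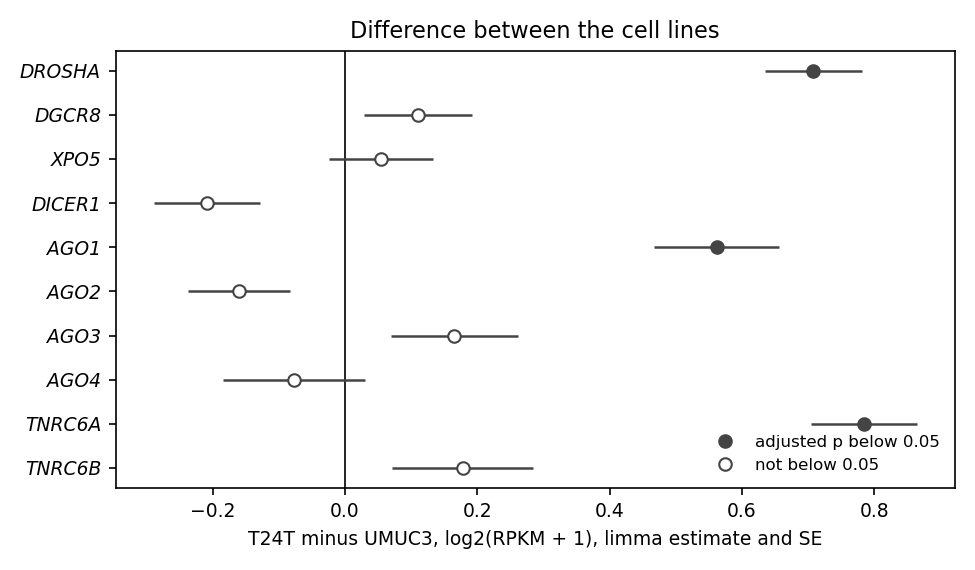
limma difference of T24T minus UMUC3 on log2(RPKM + 1) for each gene with its SE over 2 libraries per line. Filled points have a Benjamini-Hochberg adjusted p below 0.05, and TNRC6A (0.78), DROSHA (0.71) and AGO1 (0.56) are filled.

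The rest of the pathway was covered by 5 lists of genes. Of 14 Microprocessor and export cofactors, 12 had at least 200 reads in each pair, and 0 differed 1.2-fold with BCUC-1 in either line. The share over all genes with enough reads was 5.77% in T24T and 14.6% in UMUC3. ADAR, an RNA editing enzyme, had 33.9 and 33.4 RPKM in T24T and 20.5 and 18.6 in UMUC3 (BCUC-1 and vector). It was higher in T24T by 0.76 on log2(RPKM + 1), with a limma adjusted p of 0.000119. DDX5, a helicase of the Microprocessor, had 207 and 209 RPKM in T24T and 129 and 128 in UMUC3, a difference of 0.69. In all, 7 of the 12 tested cofactors were called higher in T24T and 3 lower, beside 40.8% and 29.6% of all genes.

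By the 1.2-fold rule, 5.77% of all genes with enough reads passed in T24T and 14.6% in UMUC3. Among 16 Dicer partners and loading factors, 1 passed, in UMUC3. This was MOV10, an RNA helicase found with Argonaute, with a ratio of 1.22 (1.13 to 1.325) in UMUC3 and 0.937 (0.870 to 1.01) in T24T. Its UMUC3 log2 ratio was 0.29, past the rule of 0.263 on that scale. It was short of the rule in 3 other settings, at 0.16 with the GC trend removed, 0.25 with equal medians and 0.259 on log2(RPKM + 1). The Dicer partner TARBP2 had 1.04 (0.918 to 1.18) and 1.02 (0.916 to 1.14), and PRKRA had 1.00 (0.872 to 1.15) and 1.04 (0.877 to 1.22), in T24T and UMUC3. Between the lines, TSNAX and TSN, whose products form the C3PO endonuclease that promotes RISC activation, were higher in T24T by 1.27 and 1.05. FMR1, which encodes an RNA-binding protein that associates with Argonaute, was lower in T24T by a log2 difference of -1.29, at 7.16 and 7.34 RPKM in T24T and 18.6 and 19.7 in UMUC3. Of the 16, 4 were called higher and 6 lower in T24T, again beside 40.8% and 29.6% of all genes.

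Of 27 deadenylation and decapping genes, 1 of the 26 with enough reads in T24T was at least 1.2-fold lower (PAN2, a deadenylase subunit, 0.816, 0.730 to 0.911). In UMUC3 1 of 27 was (CNOT4, a ubiquitin ligase that binds the CCR4-NOT complex, 0.788, 0.699 to 0.888). Over all genes with enough reads, 4.59% in T24T and 5.67% in UMUC3 were at least 1.2-fold lower. None of the list was 1.2-fold higher, beside 1.18% and 8.97% of all genes. The calls of PAN2 and CNOT4 depend on the setting. PAN2 had a log2 ratio of -0.29. It was short of the rule (0.263 in size) at -0.260 with equal medians and -0.23 on log2(RPKM + 1). With the GC trend removed CNOT4 had a log2 ratio of -0.24, beside -0.34 before, and no longer passed. In that setting CNOT2, a CCR4-NOT subunit, passed as higher in UMUC3 at 0.29, beside 0.098 before. PAN2 and CNOT2 were outside the rule for naming genes and were chosen after their values were seen. TNRC6C had 0.973 (0.850 to 1.11) in T24T and 1.15 (1.04 to 1.29) in UMUC3. Between the lines, CNOT11, a CCR4-NOT subunit, was higher in T24T by 1.24 and PABPC1, the poly(A) binding protein, lower by a log2 difference of -0.90, within 10 higher and 7 lower calls of 27, beside 70.4% of all genes called.

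Of 11 genes of microRNA tailing and turnover, 10 had enough reads, and 1 passed 1.2-fold, in UMUC3. Over all genes with enough reads, 5.77% passed in T24T and 14.6% in UMUC3. ERI1, an exonuclease of small RNAs, had 746 reads in UMUC3 BCUC-1 and 1122 in UMUC3 vector, a ratio of 0.775 (0.706 to 0.851), against 1.103 (0.999 to 1.22) in T24T. TUT4 and TUT7, the uridylating enzymes of let-7 precursors, had ratios from 0.940 to 1.03 over the lines. In the line contrast 3 of the 10 were called higher in T24T and 2 lower, beside 40.8% and 29.6% of all genes.

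The 5th list held transcripts that host microRNAs. Of 17 in the table, 9 had enough reads in T24T and 10 in UMUC3. Over all genes with enough reads, 5.77% passed 1.2-fold in T24T and 14.6% in UMUC3. DLEU2, the host of miR-15a and miR-16-1, was the 1 transcript past 1.2-fold, with 402 reads in UMUC3 BCUC-1 and 656 in UMUC3 vector, a ratio of 0.714 (0.629 to 0.810), against 1.04 (0.854 to 1.26) in T24T. The count depends on the setting. With the GC trend removed MIRLET7BHG, on 102 and 125 reads in UMUC3, was just past the rule at -0.265, beside -0.072 before. This transcript was outside the rule for naming genes and was chosen after its value was seen. MIR17HG, the host of the miR-17-92 cluster, had 0.882 (0.661 to 1.17) in T24T and 0.927 (0.762 to 1.13) in UMUC3. FOCAD, whose intron holds miR-491, had 2.32 and 2.32 RPKM in T24T BCUC-1 and vector, and 5.35 and 4.78 in UMUC3 BCUC-1 and vector. Its ratio was 1.00 (0.887 to 1.13) in T24T and 1.12 (1.04 to 1.21) in UMUC3. MIR100HG, which hosts miR-100 and let-7a-2, had 0.620 and 0.595 RPKM in T24T, against 10.4 and 11.6 in UMUC3. On log2(RPKM + 1) it differed by -2.90, and 1 of the 9 hosts tested was called higher and 6 lower in T24T, beside 40.8% and 29.6% of all genes. A host transcript is not a measure of the mature microRNA, and the mature microRNAs were not analysed here.

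**Figure D5:**
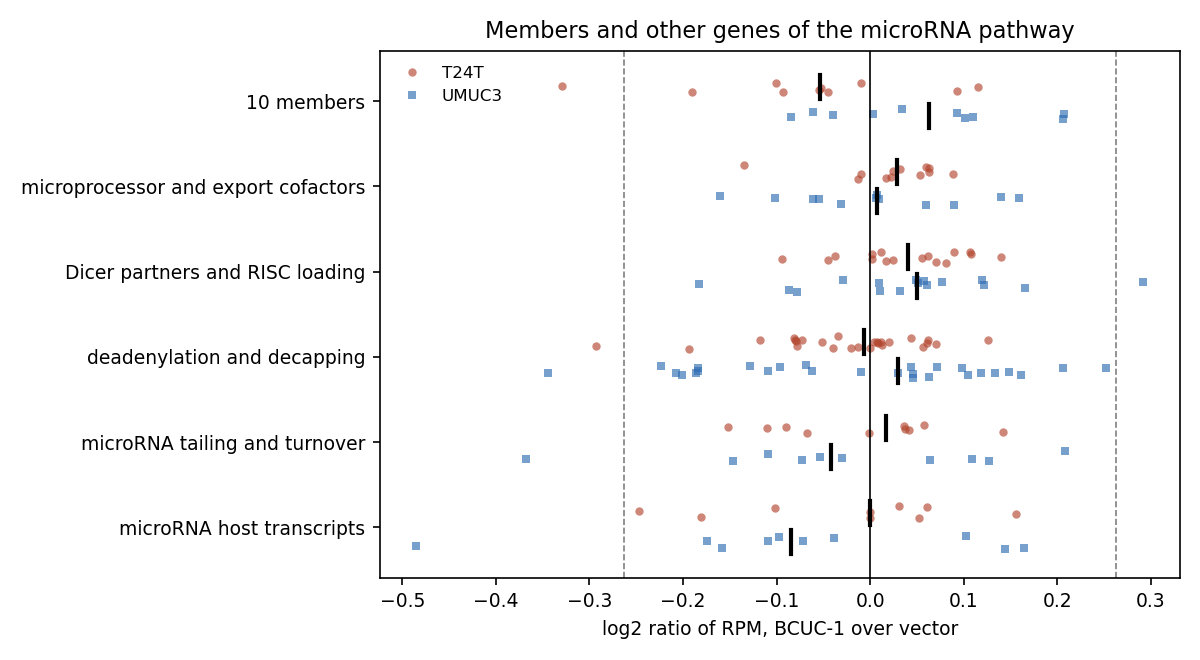
log2 ratio of RPM, BCUC-1 over vector, for the 10 members and the 5 lists in T24T (circles) and UMUC3 (squares), for genes whose pair held 200 reads or more. Short black lines are medians and dashed lines mark 1.2-fold. Points beyond the dashed lines are AGO4 and PAN2 in T24T, and MOV10, CNOT4, ERI1 and DLEU2 in UMUC3.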

How the data were processed

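Total RNA of the 4 cell populations was sequenced. The authors deposited RPKM per gene and library with exonic lengths. The submitters' processing notes name Bowtie 0.12.2. Its role, the genome build, the annotation and the read counter were not given in the sources used here. For 100% of genes RPKM multiplied by length gave whole reads within 0.001 reads, so reads and depth could be recovered. The spans of all 10 members were identical to GENCODE 29, so coordinates are on GRCh38.

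limma 3.58.1 (R 4.3.3), with prior variance following mean level, was fitted to log2(RPKM + 1) with terms for line and treatment. A gene entered if 2 libraries reached 1 RPKM. The fit was also run on simulated data with the same dispersion for all genes and no GC trend. That run checked the code and does not give error rates for these data. Ratios have exact Clopper-Pearson intervals at 95%, and levels have exact Poisson ones (scipy 1.17.1), for counting error alone. The GC trend was the median log2 ratio in 20 bins, over the 68.9% of genes matched to GENCODE (all 10 members). Of each further list, direct partners of the members and the 2 highest and 2 lowest genes by mean log2 ratio or by line difference could be named. Members, lists and rules were chosen with earlier results of these data known. Columns were assigned by sample title. One marker is not reported here.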

Additional observations from a re-analysis of the deposited data

Results flagged for a closer look

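AGO1 was noted because its counting intervals lay on opposite sides of 1 in the lines. Its log2 ratio of BCUC-1 to vector was -0.09 in T24T and 0.11 in UMUC3. The difference between the lines was not tested. Intervals wholly below 1 in T24T and wholly above 1 in UMUC3 were found for 2.79% of 11273 genes. This share is not matched for reads. With the GC trend of each line removed, the values were -0.085 and 0.088, and with equal medians -0.060 and 0.071. The interval ends nearest 0 were -0.012 in T24T and 0.0093 in UMUC3. Both were smaller in size than the shifts of the medians, -0.034 and 0.039. With equal medians both intervals therefore included 1. The UMUC3 interval also included the median of genes of its GC content, 0.023.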

How the results depend on the processing

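The count of genes called for BCUC-1 over both lines was 0 as planned, with no filter, without the line block and with the GC trend removed. It was 4 with equal medians, 60 at a floor of 5 RPKM, 13 with limma-voom and 1 with a pseudocount of 0.1; the cause was not tested. No fitted member was called, with a smallest limma adjusted p of 0.930. AGO3, AGO4 and TNRC6B were not fitted at 5 RPKM. DICER1 turned to 0.0028 with the GC trend removed. The 10847 genes called between the lines became 6780 at 5 RPKM, where 8830 genes were tested. TNRC6A, DROSHA and AGO1 passed in all 9 fits. DGCR8 turned to -0.021 and XPO5 to -0.081 with equal medians, and XPO5 to -0.027 with the GC trend of the line difference removed, a setting added after the data were seen. AGO4 stood at -0.21 between the BCUC-1 libraries and 0.056 between the vector libraries, and TNRC6B at 0.068 and 0.29. AGO2, AGO3, DICER1 and TNRC6B passed in other fits, all 4 with limma-voom. AGO3 and TNRC6B passed in no further fit. AGO2 also passed with equal medians and with either GC trend removed. DICER1, lower in T24T, passed in every other fit except a pseudocount of 0.1 and no filter. The 722 of 12515 T24T genes past 1.2-fold became 238 on log2(RPKM + 1) and 82 of 7683 at 1000 reads. The 1779 of 12156 in UMUC3 became 902 on log2(RPKM + 1). They became 683 of 7472 at 1000 reads and 742 of 10709 with the GC trend removed. With equal medians the UMUC3 split of 1090 higher and 689 lower was 776 and 1002, and the T24T split of 148 and 574 was 213 and 407. AGO4 in T24T stayed past 1.2-fold in all 5 settings. On log2(RPKM + 1) it was all but level with the rule, at -0.263046 against 0.263034 in size. No pairing by replicate number was possible, since each group held 1 library. The BCUC-1 fit itself pairs the libraries by line. The removal of contained reads and the coding transcript lengths were also added after the data were seen.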
